A study of Mus musculus with 4 samples.

Results

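The 143 transcripts described here carry no gene identifier of their own, yet each lies at a locus that the deposited table also gives to at least 1 annotated gene row. They were picked by that rule alone, which uses no expression value, from 14226 rows of the table, 1416 of which have no gene identifier. The table itself, however, holds no row with a mean level under 1.00 FPKM over the 4 libraries, a measure explained below. A row that is low in a group can thus be in the table only through the group where it is high. The other 1273 rows without an identifier lie at loci of their own. RNA levels were read by sequencing of splenocyte RNA, that is, of all cell types of a dissociated spleen, from C57BL/6N mice. There were 2 wild-type (wt) libraries and 2 libraries from transgenic mice with the genotype vcS5 +/T, and the series title names an activating STAT5 mutation and peripheral T cell lymphoma. Both vcS5 libraries carry the name line1, so they stand for 1 transgenic line, and the labels give no promoter for the transgene and no age. The series design calls the 2 samples of each group biological replicates. The comparison asks how expression differs between vcS5 and wt spleen, and here also whether an unannotated transcript changes as its annotated neighbour does.

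STAT5 is a transcription factor that cytokine receptors activate through Janus kinases, and in T cells it supports survival, proliferation and effector differentiation. Assemblers of the Cufflinks type join overlapping reads into transcripts and give each group of linked transcripts an identifier, here an XLOC number. Reads that fall in introns, upstream of a known start or past a known end can be assembled into transcripts that match no annotated gene model. Such fragments can be unspliced precursor RNA, extended transcripts, non-coding RNA or reads from a neighbouring gene. With a library kit that does not mark strand, an assembler takes the strand from splice junctions.

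None of the 143 members has a strand in the table. They lie at 77 loci, 47 of which hold 1 member and 30 of which hold several, up to 15 at the locus of Nr3c1. The table gives the extent of the whole locus and not the exons of a member, so a member's own position within its locus is not known here. Reads of a member and of an annotated gene that overlap cannot be told apart without strand. The loci had a median length of 77.4 kb, against 25.2 kb for the 10391 other loci with an annotated row. Of the 77 annotated rows used as references, 62 belong to protein-coding genes. In all, 127 annotated rows share these loci, and 48 loci, with 92 members, hold exactly 1 annotated row. Where several did, the row with the highest mean over the 4 libraries served as the reference. The identifier of the reference was found in GENCODE vM21 at 72 loci. At 27 of these the locus ran more than 5 kb past its annotated genes, and 43 of the 77 loci hold a GENCODE gene whose identifier no row of the locus carries. At the Cd8a locus (mm10 chr6:71352956-71379171) the deposited region begins 20.5 kb before the start of Cd8a and holds the GENCODE genes Gm44174 and Gm44175.

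The promoter sequences of the 4 annotated genes beside a member that rose are shown first, followed by that of Itm2b, where a member fell beside an annotated row whose own difference did not pass the test. Each is the stretch of 250 bases before the RefSeq start (GRCm38.p6, the mm10 assembly), written 5′ to 3′ on the gene's strand. RefSeq windows were found for 50 of the 77 reference genes, and Cracr2a is the current symbol of Efcab4b. The windows are chr6:71373177-71373426 on the plus strand for Cd8a, chr6:127561086-127561335 on the plus strand for Cracr2a, chr6:130231688-130231937 on the minus strand for Klra7, chr13:73763410-73763659 on the plus strand for Slc12a7 and chr14:73385290-73385539 on the minus strand for Itm2b. Capitals mark a match to TTCNNNGAA, the palindrome that STAT dimers recognise.
Cd8a: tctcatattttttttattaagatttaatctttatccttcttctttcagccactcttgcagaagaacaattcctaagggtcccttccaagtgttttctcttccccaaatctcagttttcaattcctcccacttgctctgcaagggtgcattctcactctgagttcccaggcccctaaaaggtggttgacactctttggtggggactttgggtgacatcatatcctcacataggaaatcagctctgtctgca
Cracr2a: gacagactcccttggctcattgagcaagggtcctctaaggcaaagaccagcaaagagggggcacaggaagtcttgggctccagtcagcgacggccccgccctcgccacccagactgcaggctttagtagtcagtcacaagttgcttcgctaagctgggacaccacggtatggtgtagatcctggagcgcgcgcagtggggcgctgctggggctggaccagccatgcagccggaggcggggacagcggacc
Klra7: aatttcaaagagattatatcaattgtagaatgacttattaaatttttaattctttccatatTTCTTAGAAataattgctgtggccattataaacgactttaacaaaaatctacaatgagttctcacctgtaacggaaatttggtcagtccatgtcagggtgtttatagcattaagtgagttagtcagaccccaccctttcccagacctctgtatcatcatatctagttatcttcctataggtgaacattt
Slc12a7: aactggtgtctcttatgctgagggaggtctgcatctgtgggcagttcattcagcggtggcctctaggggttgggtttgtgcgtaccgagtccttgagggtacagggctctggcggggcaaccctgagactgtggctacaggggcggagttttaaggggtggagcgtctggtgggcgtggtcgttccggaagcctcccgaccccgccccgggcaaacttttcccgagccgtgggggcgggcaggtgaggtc
Itm2b: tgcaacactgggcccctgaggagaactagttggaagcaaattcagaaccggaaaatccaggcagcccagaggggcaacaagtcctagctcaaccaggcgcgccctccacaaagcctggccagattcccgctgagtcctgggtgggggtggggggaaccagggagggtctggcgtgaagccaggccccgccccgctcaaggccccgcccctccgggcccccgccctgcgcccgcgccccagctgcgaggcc
Of these 5 windows, only that of Klra7 held TTCNNNGAA, in 1 of its 2 windows in the table. None held TGTGGT, the core that RUNX factors recognise, on either strand. Of all 32851 windows of this length, 7.02% held the first motif and 14% the second. Among the 74 windows of the reference genes the shares were 5.41% and 18.9%, so the first was found in 4 genes and the second in 12. The Slc12a7 locus of the table begins 30.6 kb before the start used for its window. These matches describe the letters near annotated starts and say nothing of the starts of the unannotated transcripts.

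Values are FPKM, fragments scaled to transcript length and to library size, so levels are compared per length. The number of reads behind a library is not known from these values, and no counting interval can be given. Median FPKM over all rows was between 12.2 and 12.6 in the 4 libraries. Members were low, with a median of 2.11 FPKM over the libraries and quartiles of 1.63 and 3.14, while the range ran from 1.00 to 90.5. The lower end of this range is that of the table, whose lowest mean over all rows is also 1.00 FPKM. For example, XLOC_028525 at Efcab4b and XLOC_010747 at Itm2b, described below, lay under this level in both libraries of their lower group. A mean of at least 5 FPKM was reached by 21 members and of at least 10 by 9, and no member was listed at 0 in any library. Relative to the reference row, the median member level was 6.12%, with 89 members under 10% and 2 above it. The median absolute log2 difference between libraries of one group was 0.348 in wt and 0.328 in vcS5 for members. It was 0.318 and 0.331 for unannotated rows at their own loci, which have similar levels, and 0.204 and 0.208 over all rows.

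Differences between the groups were tested with limma on log2(FPKM + 1) over all 14226 rows, and p-values were adjusted after Benjamini and Hochberg and called under 0.05. On this scale changes of low rows are understated. With 2 libraries per group, p-values set a difference against the spread between these few samples, which limma estimates partly from other rows. Of the 143 members, 5 rose (3.50%) and 4 fell (2.80%), against 4.59% and 4.13% of all rows, so both shares were near those of the table as a whole. An unadjusted p under 0.05 in limma was reached by 45 members. Over all 14226 rows it was reached by 3595, and over the 1273 unannotated rows at their own loci by 434. Both vcS5 values lay above both wt values in 36 members (25.2%) and below them in 47 (32.9%), against 26.9% and 27.5% of all rows. The median log2 change of members was -0.15, that of all rows 0.00 and that of unannotated rows at their own loci -0.06. Of the members 62 had a positive and 81 a negative change, and over the 21 members with at least 5 FPKM the median was 0.15. The authors' deposited table gives a q-value under 0.05 to 2 members that are higher and 1 that is lower in vcS5, against 5.31% and 6.14% of all rows. Those 2 are the Cd8a members, and the authors' deposited q-values of the other 7 members past the limma test are 0.546 to 0.950. The third is XLOC_034876 at the Nxpe2 locus (q = 0.0435 in the authors' deposited table), with 2.71 and 3.63 FPKM in wt and 1.29 and 1.04 in vcS5, and an adjusted p of 0.062 in limma.

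The largest rises were at Cd8a, which encodes the alpha chain of the CD8 coreceptor of cytotoxic T cells. XLOC_028493 was at 4.86 and 5.25 FPKM in wt and at 46.6 and 53.5 in vcS5, and XLOC_028492 at 4.05 and 4.50 in wt and 38.2 and 41.7 in vcS5. In both, all vcS5 values stood far above all wt values. The ratios of the means were 9.91 and 9.34, and the log2 changes 3.07 (SE 0.15) and 2.96 (SE 0.14), each with an adjusted p of 0.0012 in limma. Cd8a itself went from 51.1 and 62.9 to 391 and 445 FPKM. Its log2 change was 2.86 (SE 0.17, adjusted p = 0.003 in limma). Together the pair amounted to 17.4% and 15.5% of the Cd8a level in wt and to 21.7% and 21.4% in vcS5. The difference between each member's change and that of Cd8a was 0.22 (SE 0.21) and 0.10 (SE 0.21), with adjusted p of 0.75 and 0.89, which does not show that the changes are equal. The 2 CD8 T cell markers, Cd8a and Cd8b1, summed to 125 and 167 FPKM in wt and to 957 and 1105 in vcS5. In bulk tissue, a change in the number of cells of a type and a change in RNA per cell cannot be told apart, for rises and falls alike.

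**Figure D1:**
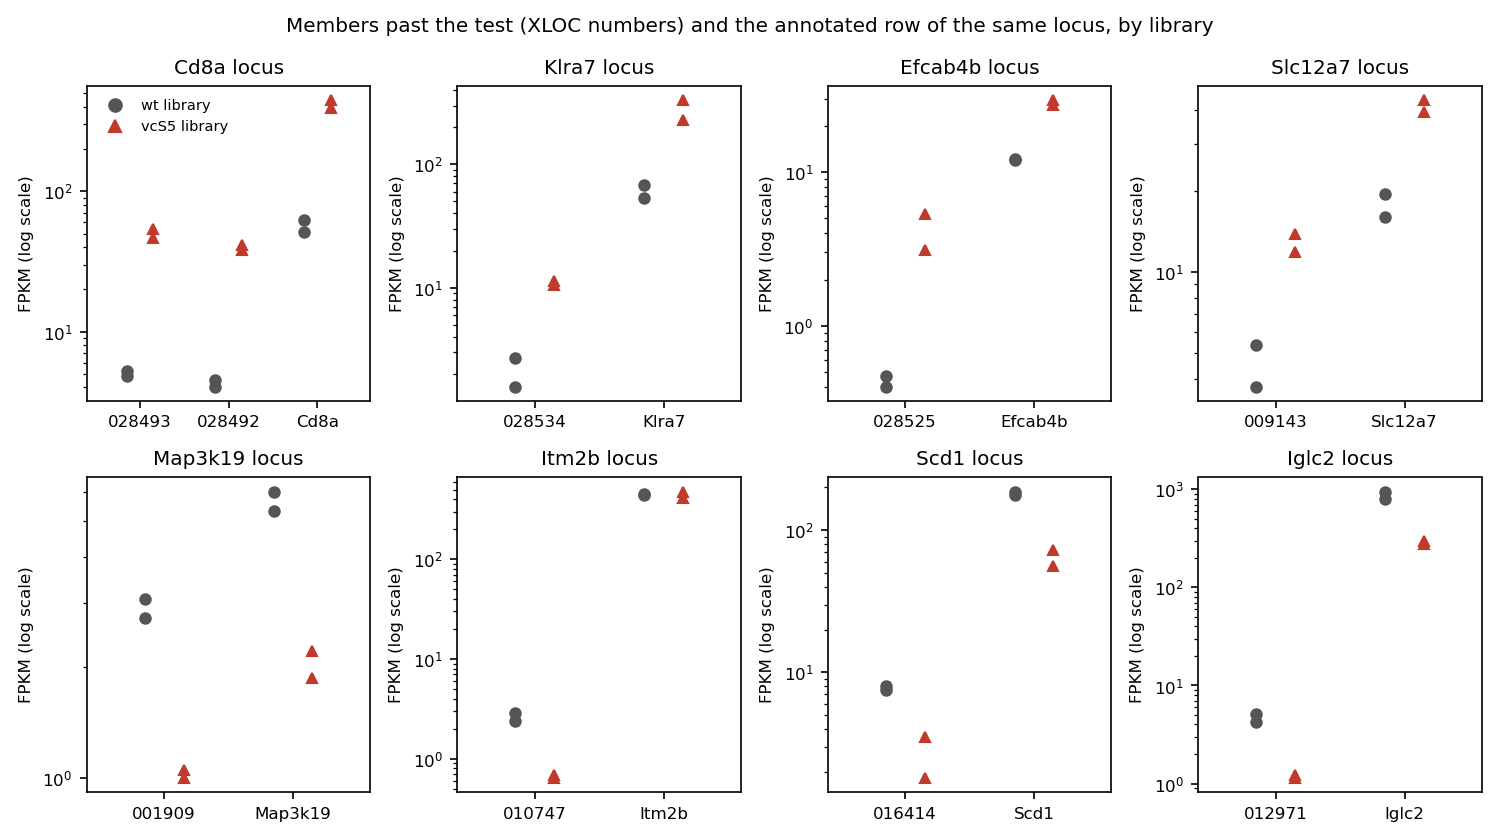
FPKM on a log scale in each library for the 9 members past the test (XLOC numbers) and the reference row of their locus, in 8 panels, with circles for wt and triangles for vcS5. In 7 panels the reference row moves with the member, and at Itm2b the reference row lies between 410 and 476 FPKM while the member goes from 2.87 and 2.37 to 0.64 and 0.69.

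At the Klra cluster (chr6:130043731-130308376), which encodes the Ly49 receptors of natural killer cells and some T cells, XLOC_028534 was at 2.67 and 1.58 FPKM in wt and 11.3 and 10.5 in vcS5. The change was 1.95 on the log2 scale (SE 0.22, adjusted p = 0.013 in limma). Klra7, the most abundant annotated row, was at 67.9 and 53.5 FPKM in wt and 331 and 231 in vcS5, with a log2 change of 2.18. The locus holds 6 annotated rows, and 5 of them rose by 2.17 to 2.55, while Klra9 was at 5.73 and 5.12 in wt and 6.43 and 3.77 in vcS5. These receptors are near-identical copies, so the division of reads among their rows is uncertain. The 3 natural killer cell markers, of which Klra8 lies in this cluster, summed to 40.9 and 43.1 FPKM in wt and 108 and 88.9 in vcS5. The more abundant Klra8 row alone went from 12.1 and 11.8 FPKM in wt to 80.8 and 68.6 in vcS5. A second Klra8 row went from 3.25 and 2.36 FPKM in wt to 18.8 and 14.0 in vcS5. Without the more abundant Klra8 row, the rest of the sum was lower in both vcS5 libraries than in both wt libraries. The rise of the sum is therefore that of Klra8, and the other markers did not rise as a set. The part of the markers in the result was not tested.

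Efcab4b encodes a calcium sensor that regulates store-operated calcium channels in T cells. Its locus (chr6:127561246-127674176) holds 5 members. In all 5 both vcS5 values lay above both wt values, against 26.9% of all rows, but only XLOC_028525 passed the test. That member was at 0.40 and 0.48 FPKM in wt and 3.12 and 5.32 in vcS5 (log2 change 1.83, SE 0.27, adjusted p = 0.023 in limma). The log2 changes of the other 4 were between 0.50 and 1.37. Summed, the 5 members reached 5.24 and 3.76 FPKM in wt and 13.4 and 21.0 in vcS5, which is 42.9% and 31.4% of the Efcab4b level in wt and 49.2% and 71.6% in vcS5. Efcab4b rose from 12.2 and 11.97 to 27.2 and 29.3 FPKM (log2 change 1.16, SE 0.13, adjusted p = 0.013 in limma).

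Slc12a7, a potassium-chloride cotransporter, rose from 16.1 and 19.5 to 39.2 and 43.4 FPKM, with a log2 change of 1.17. XLOC_009143 at the same locus (chr13:73733100-73816743) was at 3.74 and 5.37 FPKM in wt and 11.9 and 13.8 in vcS5 (log2 change 1.33, SE 0.20, adjusted p = 0.024 in limma). It amounted to 23.3% and 27.5% of the Slc12a7 level in wt and to 30.3% and 31.8% in vcS5. The member beside Ptpn22, a phosphatase that limits T cell receptor signalling, was named after its values were seen because it missed the threshold narrowly. XLOC_021334 was at 1.34 and 0.53 FPKM in wt and 3.40 and 3.33 in vcS5 (log2 change 1.21, adjusted p = 0.058 in limma), beside a rise of Ptpn22 by 1.26.

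Among the members that fell, XLOC_012971 lies at the immunoglobulin lambda locus (chr16:19051354-19200351), whose most abundant row is Iglc2, a lambda light chain constant region of B cells and plasma cells. It was at 5.11 and 4.23 FPKM in wt and 1.14 and 1.23 in vcS5 (log2 change -1.37, SE 0.19, adjusted p = 0.019 in limma). All 5 members of this locus had a negative change, and 4 of them did without wt replicate 2. In 4 members vcS5 lay wholly below wt, against 27.5% of all rows. The sum of the 5 members was 16.3 and 15.3 FPKM in wt and 6.06 and 6.48 in vcS5. Iglc2 fell from 798 and 944 to 296 and 280 FPKM, a log2 change of -1.59. The sum of the members thus stayed between 1.62% and 2.32% of the Iglc2 level in all 4 libraries. Single members had log2 changes from -1.37 to -0.42. The locus also holds a second Iglc2 row that fell (-1.34) and Iglv1 rows at -0.68 and -0.82 that did not pass the test. Among these annotated rows, an Iglv1 row had the closest change for XLOC_012966, XLOC_012967, XLOC_012968 and XLOC_012972. The differences from it were 0.25, -0.06, 0.20 and -0.21. For XLOC_012971 the closest was the second Iglc2 row, with a difference of -0.03. Markers of B cells summed to 2770 and 3333 FPKM in wt and 1139 and 1105 in vcS5, and all 6 of them passed the test.

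XLOC_001909 lies at the locus of the kinase gene Map3k19 (chr1:127814971-127857687) and was at 2.72 and 3.08 FPKM in wt and 1.05 and 1.00 in vcS5 (log2 change -0.94, SE 0.19, adjusted p = 0.047 in limma). Its reference is itself low, at 5.33 and 6.02 FPKM in wt and 2.21 and 1.87 in vcS5, with a log2 change of -1.13. Scd1 encodes stearoyl-CoA desaturase, which makes monounsaturated fatty acids. XLOC_016414 at its locus (chr19:44394272-44408867) was at 8.02 and 7.49 FPKM in wt and 3.52 and 1.81 in vcS5 (log2 change -1.30, SE 0.26, adjusted p = 0.048 in limma), beside a fall of Scd1 from 177 and 186 to 72.6 and 55.9 FPKM. This call was lost in all 10 alternatives that were run, with adjusted p between 0.051 and 0.19.

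Itm2b, which encodes an integral membrane protein found in most tissues, was the exception among the 9. Its level was 451 and 443 FPKM in wt and 410 and 476 in vcS5, with a log2 change of -0.02 (SE 0.17). XLOC_010747 at its locus (chr14:73339789-73385295) was at 2.87 and 2.37 FPKM in wt and at 0.64 and 0.69 in vcS5 (log2 change -1.12, SE 0.20, adjusted p = 0.037 in limma). The difference between the changes was -1.10 (SE 0.21), which did not pass its own test (unadjusted p = 0.0039, adjusted p = 0.095). The locus runs 22.4 kb past the annotated 3′ end of the gene. The member is 0.369% as abundant as Itm2b.

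The 9 members past the test thus lie at 8 loci, and for 8 of the 9 the reference row passed the test in the same direction. Depending on 1 library was common, and the 2 Cd8a members alone kept the call whichever library was left out. The Klra7 member kept it without wt replicate 1 (adjusted p = 0.040) and lost it without wt replicate 2, vcS5 replicate 1 or vcS5 replicate 2 (0.054, 0.090 and 0.116). The other 6 lost it whichever library was left out, with the sign of the change kept. Over all members, 4 were higher without wt replicate 1 and 2 without any one of the other libraries, and 1 was lower without wt replicate 1 and 0 without any one of the others.

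Members were then grouped by what their reference row did. Where the reference rose there were 12 members at 7 loci (Cd8a, Efcab4b, Klra7, Ly6c2, Prkar2a, Ptpn22 and Slc12a7). Of these 11 had a positive change and 5 passed the test. Annotated rows paired in the same way with a reference that rose had a positive change in 82 of 106 cases (77.4%), and 28 of the 106 rose. Where the reference fell there were 17 members at 8 loci (2010007H06Rik, Cxcr5, H2-Ob, Iglc2, Map3k19, Mir1839, Notch2 and Scd1). Here 14 had a negative change and 3 passed the test, beside a negative change in 103 of 123 annotated rows paired the same way (83.7%), of which 26 fell. Where the reference did not pass the test, 47 of 112 members had a positive and 65 a negative change, and 1, that at Itm2b, passed. Nr3c1 alone held 1 of these positive and 14 of these negative changes. Of 2098 annotated rows paired the same way 1017 had a positive and 1081 a negative change, and 55 rose and 62 fell. The other 2 members have a reference listed at 0 in vcS5.

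As a description over 141 members with a reference above 0, the change of the member and that of its reference had a Pearson's r of 0.57 and a Spearman's rho of 0.43. Without the Cd8a pair they were 0.46 and 0.40 over 139 members. Members of 1 locus share a reference and all points share the 4 libraries, so these are not independent, and over 75 loci with members averaged the values were 0.58 and 0.45.

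**Figure D2:**
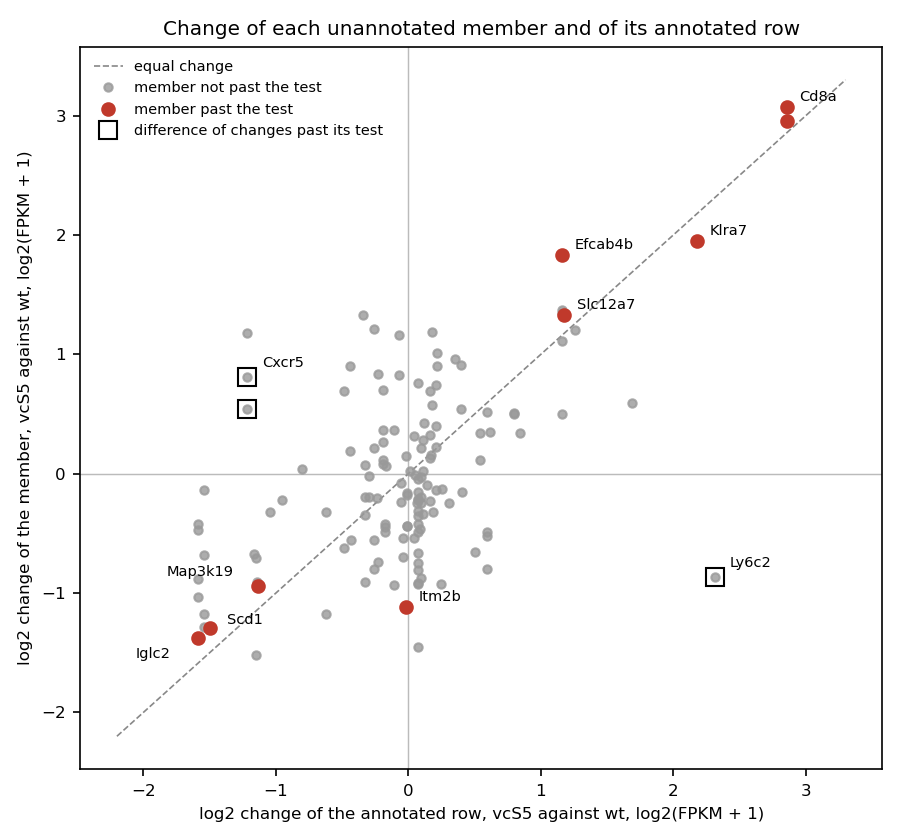
Log2 change in vcS5 against wt of each of 141 members (vertical axis) and of its reference row (horizontal axis), both on the log2(FPKM + 1) scale, with members past the test in red and squares around members whose change differed from that of the reference. Of the 9 red points 7 lie near the dashed line of equal change, Efcab4b lies above it by 0.67 and Itm2b below it by more, and the squares mark 2 members at Cxcr5 and 1 at Ly6c2.

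The difference between the 2 changes was tested directly, with limma on the log2 difference between a row and its reference in each library, over all 2485 rows that share a locus with an annotated row. The median difference over members was -0.02, against -0.03 over all pairs, and 70 differences were positive and 73 negative. In 4 members the change exceeded that of the reference (2.80%) and in 1 it fell short (0.699%), against 1.57% and 1.29% of all pairs. For 2 of the 4 the reference row is listed at 0 in both vcS5 libraries, so no fold is given. These are XLOC_015805, at 7.34 and 4.53 FPKM in wt and 11.3 and 5.59 in vcS5 beside the small RNA gene Gm24400 (32.3 and 33.1 FPKM in wt), and XLOC_010729, at 1.34 and 2.38 in wt and 1.34 and 0.97 in vcS5 beside the T cell receptor delta joining segment Trdj2 (1158 and 2580 FPKM in wt). The second of these members was named after its values were seen. In neither did the member's own change pass the test. Both references fell past the limma test, but neither has a q-value under 0.05 in the authors' deposited table (0.616 for Trdj2). The locus of XLOC_015805 also holds the ribosomal RNA row n-R5s21, likewise listed at 0 in vcS5, and the protein-coding gene Dnmbp. The log2 change of Dnmbp was -0.24 and did not pass the test, and that of the member differed from it by 0.65. At the locus of XLOC_010729, Trdj1 had a log2 change of 0.56 that did not pass the test.

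The other pair lies at the locus of Cxcr5 (chr9:44482417-44556391), the chemokine receptor that guides B cells and follicular helper T cells into follicles. Cxcr5 fell from 94.5 and 107 FPKM in wt to 45.2 and 40.3 in vcS5 (log2 change -1.22, SE 0.15, adjusted p = 0.015 in limma). All 3 members of the locus lay higher in both vcS5 libraries than in both wt libraries, against 26.9% of all rows. None passed the test of its own change. Without the variance trend XLOC_034867 did (adjusted p = 0.039 in limma). XLOC_034868 was at 5.86 and 2.31 FPKM in wt and 12.6 and 7.52 in vcS5. XLOC_034867 was at 1.40 and 1.35 in wt and 3.25 and 3.07 in vcS5, and XLOC_034866 at 1.02 and 1.02 in wt and 2.01 and 1.87 in vcS5. Their changes exceeded that of Cxcr5 by 2.39 (SE 0.47, adjusted p = 0.104), 2.02 (SE 0.20, adjusted p = 0.012) and 1.76 (SE 0.20, adjusted p = 0.017 in limma). Summed, they amounted to 8.75% and 4.38% of the Cxcr5 level in wt and to 39.5% and 30.9% in vcS5.

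The same locus holds a second annotated row, Bcl9l, a coactivator of beta-catenin. Bcl9l was at 19.6 and 25.6 FPKM in wt and 32.3 and 35.5 in vcS5, a log2 change of 0.57 that did not pass the test (SE 0.17, adjusted p = 0.121 in limma). The changes of the 3 members, 1.18, 0.81 and 0.54, differed from that of Bcl9l by 0.60, 0.23 and -0.03, and were thus closer to Bcl9l than to Cxcr5. Set against the sum of both annotated rows, the difference for XLOC_034867 was 1.48 (adjusted p = 0.028). Against Cxcr5 alone, the difference for XLOC_034867 was no longer past the test whichever library was left out. It was 2.12 and 1.92 without wt replicates 1 and 2, and 2.07 and 1.97 without vcS5 replicates 1 and 2. The difference from the sum was not refitted with a library left out.

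The member that fell short of its reference lies in the Ly6 cluster (chr15:74979754-75297352), which encodes small lipid-anchored surface proteins of lymphocytes and myeloid cells. XLOC_011881 was at 23.5 and 7.93 FPKM in wt and 6.83 and 7.41 in vcS5, so wt replicate 1 stood apart from the other 3 libraries. Its own log2 change was -0.87 (SE 0.47) and did not pass the test. Ly6c2, a marker of monocytes and memory CD8 T cells and the most abundant row of the locus, rose from 127 and 78.8 to 483 and 525 FPKM (log2 change 2.32, SE 0.26, adjusted p = 0.012 in limma). The difference between these changes was -3.18 (SE 0.32, adjusted p = 0.012). The other 4 annotated rows had negative changes that did not pass the test, -0.69 for Ly6c1, -1.11 for Ly6a, -1.47 for the neutrophil marker Ly6g and -1.87 for Gm10238. Against the sum of all 5 annotated rows the difference was -1.20 (adjusted p = 0.198). The difference from Ly6c2 alone was no longer past the test without wt replicate 1 (-2.80) or without vcS5 replicate 2 (-3.17). Ly6g was at 21.2 and 3.26 FPKM in wt, and 6 neutrophil markers, Ly6g among them, summed to 5349 and 1593 in wt and 888 and 841 in vcS5. Their part in the level of this member was not tested.

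**Figure D3:**
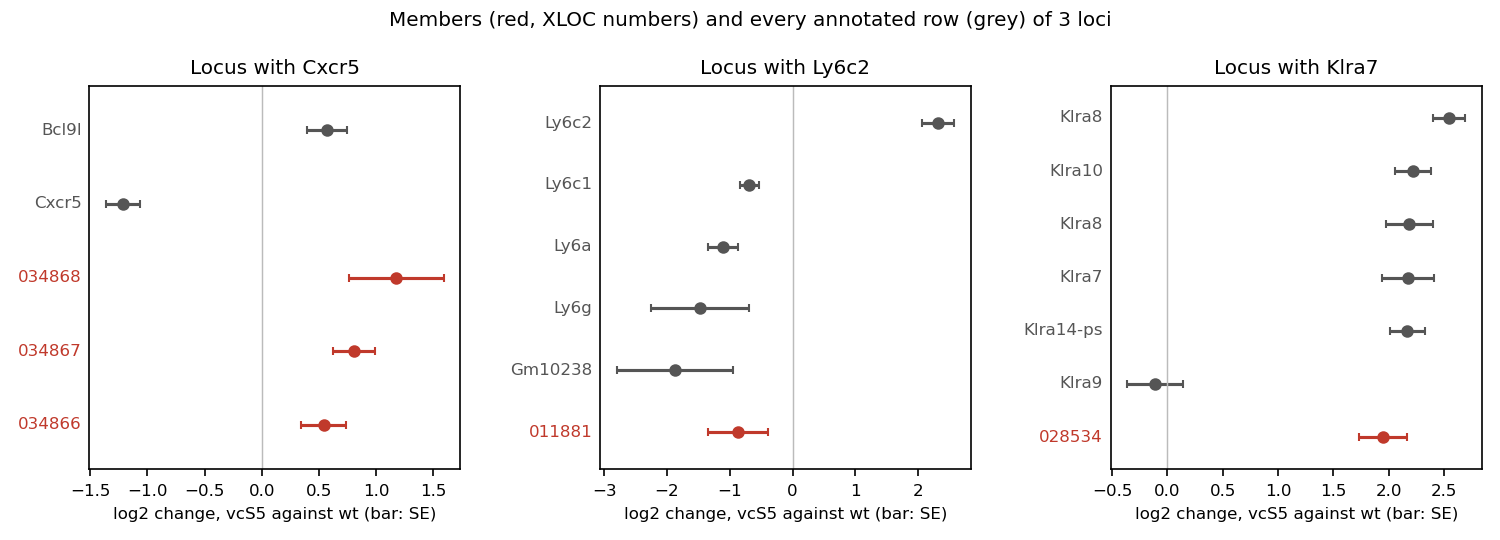
Log2 change in vcS5 against wt, with its SE as a bar, for the members (red) and every annotated row (grey) at the loci of Cxcr5, Ly6c2 and Klra7, where 2 rows are named Klra8. At Cxcr5 the 3 members lie on the side of Bcl9l, at Ly6c2 the member lies on the side of the 4 rows with negative changes, and at Klra7 it lies beside the 5 rows that rose.

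At 30 loci with several members, those of 19 loci all had the same sign, and so did 12 of the 17 loci with exactly 2. The same count was not made for annotated rows that share a locus, so no concordance within loci can be read from these numbers. The richest locus was that of Nr3c1, the glucocorticoid receptor, which mediates the killing of lymphocytes by steroids. Nr3c1 was at 36.3 and 37.1 FPKM in wt and 39.6 and 37.6 in vcS5, a log2 change of 0.07 (SE 0.13). Of its 15 members 14 had a negative change, 5 had vcS5 values wholly below wt, and none passed the test. Values wholly below wt were also found in 27.5% of all rows and 32.9% of all members. The count of negative changes was 9 without wt replicate 2 and 12 or 13 without any one of the other libraries. The lowest adjusted p, 0.057, belonged to XLOC_015420, at 4.52 and 2.13 FPKM in wt and 0.50 and 0.54 in vcS5, and with a pseudocount of 0.1 it passed (adjusted p = 0.043 in limma). XLOC_015426 was at 14.8 and 1.75 in wt and 1.65 and 3.57 in vcS5, so its level rests on wt replicate 1, and without that library its log2 change was 0.34. The sum over the 15 was 46.0 and 32.7 FPKM in wt and 25.6 and 19.5 in vcS5, or 127% and 88.1% of the Nr3c1 level in wt and 64.7% and 51.8% in vcS5. The 2 groups of sums did not overlap, and with 2 libraries each an exact permutation test could not fall below a p of 0.333.

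Of the other loci with 5 members, that of AC149090.1, on an unplaced scaffold, had positive changes in all 5, between 0.08 and 0.70, and in 4 without wt replicate 1 or vcS5 replicate 1. None of them passed the test, and their sum was 12.3 and 11.5 FPKM in wt and 18.1 and 13.7 in vcS5, while AC149090.1 itself was at 223 and 233 in wt and 171 and 232 in vcS5. At Gm1966, 4 of 5 members had a negative change, 2 of 5 without vcS5 replicate 1, and none passed the test. The 3 members at 2010007H06Rik all had vcS5 values below wt, against 27.5% of all rows. Their log2 changes were -1.17, -1.28 and -0.68 beside a fall of the annotated row by -1.54, and none passed the test. That locus and the Nxpe2 member were chosen after their values were seen.

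**Figure D4:**
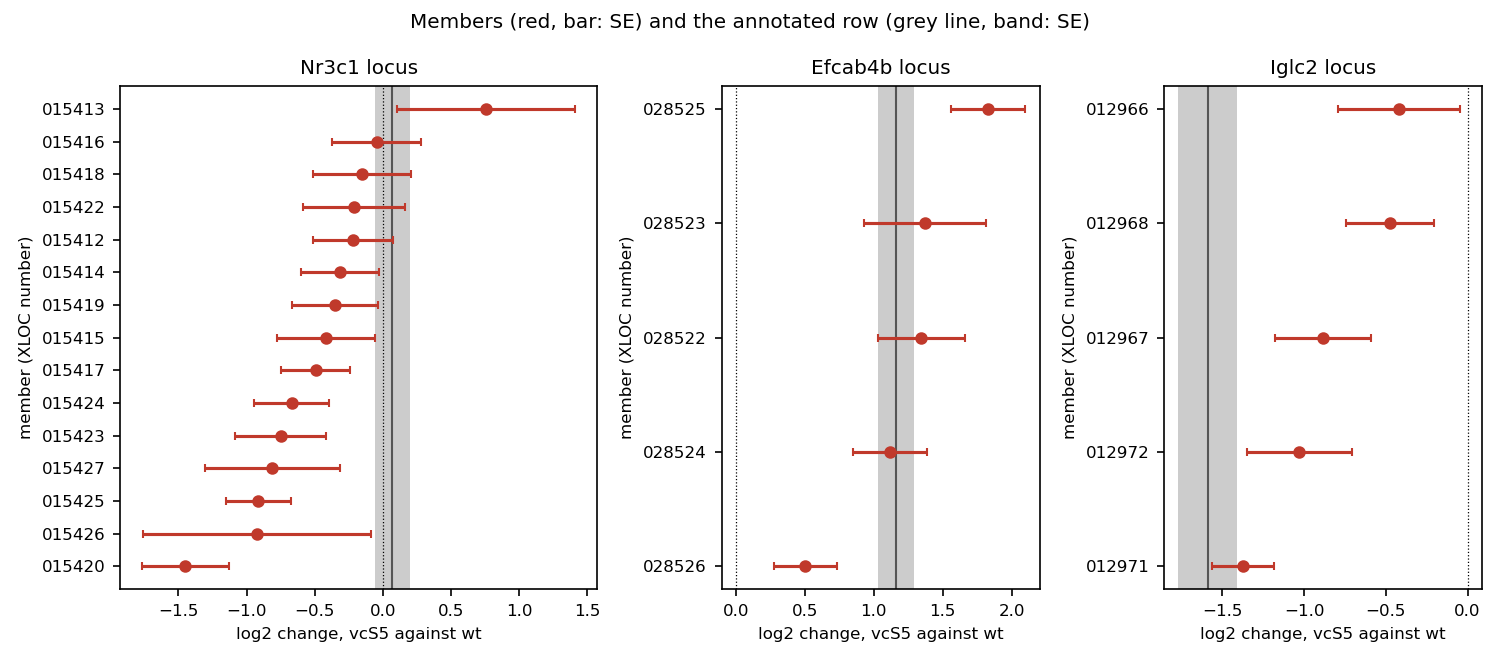
Log2 change in vcS5 against wt, with its SE as a bar, for each member (XLOC number) at the Nr3c1, Efcab4b and Iglc2 loci, with the reference row as a grey line and its SE as a band. At Nr3c1 14 of 15 members lie below 0 while the reference lies at 0.07, and at Efcab4b and Iglc2 the 5 members lie on the side of 0 where the reference lies.

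The most abundant members were a pair at the locus of Syne1 (chr10:5020202-5103786), which encodes the nuclear envelope protein nesprin-1. XLOC_001969 was at 36.3 and 102 FPKM in wt and 86.7 and 137 in vcS5, and XLOC_001967 at 38.1 and 9.65 in wt and 41.8 and 48.0 in vcS5. For both the wt libraries stood far apart, and neither passed the test (adjusted p of 0.397 and 0.306 in limma). Without wt replicate 1, XLOC_001967 passed it (adjusted p = 0.040 in limma). They are the only members above their reference, as Syne1 was at 13.2 and 13.5 FPKM in wt and 12.9 and 12.6 in vcS5. The identifier that the table gives for Syne1 was not found in GENCODE vM21 at this locus. The Cd8a pair came next, followed by XLOC_034831 at Gm20783, at 24.3 and 22.9 FPKM in wt and 22.1 and 17.8 in vcS5 (log2 change -0.24, adjusted p = 0.423).

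Gene lists of cell types and pathways were looked up for the loci of the members. Of 58 rows for T cell and T cell receptor signalling genes 32 rose and 2 fell, and the only members at their loci were the Cd8a pair. Of 38 cytotoxic and natural killer rows 23 rose and 5 fell, and the only member was that of the Klra cluster. Of 50 B cell and MHC class II rows 43 fell and 0 rose, and 4 members lay at their loci. These were the 3 at Cxcr5 and XLOC_014595 at H2-Ob, a chain of the MHC class II modulator H2-O, with 7.26 and 7.51 FPKM in wt and 5.04 and 3.55 in vcS5 (log2 change -0.68, adjusted p = 0.107), beside a fall of H2-Ob by -1.17. Of 47 rows of neutrophil, monocyte, macrophage and dendritic cell genes 2 rose and 7 fell, and the Ly6 member was the only one there.

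No member lay at the locus of any of 35 rows for cytokine signalling and STAT5 target genes, of which 12 rose and 1 fell, or of 30 erythroid and platelet rows, of which 1 rose and 0 fell. Of 38 rows for chromatin and RNA processing genes 0 passed the test in either direction. Their loci held 2 members, XLOC_028464 at the histone methyltransferase gene Ezh2, at 1.79 and 3.17 FPKM in wt and 4.96 and 2.51 in vcS5, and XLOC_028503 at Tet3, an enzyme that oxidises methylcytosine, at 0.82 and 3.22 in wt and 0.61 and 0.33 in vcS5. Neither passed the test (adjusted p of 0.518 and 0.272). Marker genes of spleen cell types of T cells, B cells, erythroid cells and macrophages, the cells the labelled tissue should hold, were present in all 4 libraries, and the 4 fibroblast and stroma markers had no row in the table used here.

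Unannotated rows at loci of their own served as a comparison, with similar levels (median 1.99 FPKM). Of these 1273 rows 92 rose (7.23%) and 50 fell (3.93%), and of the 127 annotated rows at the members' loci 13 rose (10.2%) and 14 fell (11.0%). These shares were not tested against those of the members.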

How the data were processed

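Libraries were made with the TruSeq v2 kit, which does not mark strand, from 2 µg of Trizol-extracted RNA of frozen spleen cells and read as 50 bp single ends, per the labels' protocols. The submitters' processing notes name Bowtie2 2.1.0, TopHat2 2.0.9, Cufflinks, Cuffdiff 2.1.1 and the mm10 build; settings are not given in the sources used here. Per the file headers, the table that the authors deposited holds FPKM for each row in 4 libraries. It also holds the q-value of the authors' own comparison, which was used only where it is named.

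Rows whose first gene is blank and whose locus another, annotated row carries were taken as members. Members and gene lists were chosen with earlier results of these data known. Values were transformed as log2(FPKM + 1). FPKM carries no read numbers, so no count model was used, and the planned branch for counts did not apply. Groups were compared with limma 3.58.1 in R 4.3.3 (eBayes with trend, two-sided, Benjamini-Hochberg over 14226 rows, threshold 0.05), with 2 residual and 3.17 prior degrees of freedom. Differences of changes used the same model on per-library differences over 2485 rows. The scripts were tested on simulated data. Fitted SEs are limma's moderated ones.

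Members are named where they passed either test, reached a mean of 2 FPKM or more in the higher group and, for their own change, did not overlap between groups (up to 12 per direction, or 10 pairs). Also named are members at listed genes, the 5 most abundant and the 3 loci with the most members; other names are marked as chosen later. Gm1966 and the Iglc2 locus tie with the third of these. Symbols come from the table or GENCODE vM21. Locus starts in the table count from 0 (start + 1 equals the GENCODE start at 56.0% of 8223 single-row loci, the value itself at 1.5%) and are printed counting from 1. Alternatives varied the pseudocount, filter, normalization, trend, reference row, replicate block and each library left out.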

Additional observations from a re-analysis of the deposited data

How the results depend on the processing

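With 5 members higher and 4 lower in the comparison reported, leaving out 1 library gave 2 to 4 higher and 0 to 1 lower. The authors' deposited q-value gave 2 and 1. Of these counts, that of lower members alone moved by over 1.5 times with a mean FPKM of at least 5 (0, with 21 members tested), quantile normalization (2) and the replicate block (1, with 6 higher). The count of members that exceeded the reference, 4, became 1 at a mean FPKM of at least 5, 2 with the replicate block, 2 without any one library and 0 at loci with 1 annotated row. The count that fell short, 1, became 2 with a pseudocount of 0.1, 0 with the replicate block, 0 to 2 without 1 library, 0 against the sum of annotated rows and 0 at loci with 1 annotated row, which leaves 92 members. The median change, -0.155, was 0.15 at a mean FPKM of at least 5 and -0.173 to -0.0402 without 1 library, and the median difference, -0.0199, was 0.118 and -0.0877 to 0.0887. Both medians thus changed sign under at least 1 setting. Pseudocounts of 0.1 and 0.5 and no trend kept every other count within 1.5 times, and none of the 9 members past the test of their own change reversed its sign. Of the other 35 named members, 4 passed that test under 1 setting each, with the replicate block XLOC_034868 (1.18, adjusted p = 0.048 in limma), and 11 reversed, with 0 of their 14 reversed values past the test. Each of these reversals came from leaving out 1 library. Without 1 library the log2 change ranged from -0.042 to 0.852 for XLOC_015805 at Gm24400 and from -0.315 to 0.479 for XLOC_034935 at AC149090.1. At Nr3c1 it ranged from -0.554 to 0.117 for XLOC_015412, -0.0988 to 1.62 for XLOC_015413, -0.676 to 0.0536 for XLOC_015414, -0.908 to 0.0696 for XLOC_015415, -0.442 to 0.349 for XLOC_015416, -0.576 to 0.265 for XLOC_015418, -0.747 to 0.0425 for XLOC_015419, -0.738 to 0.318 for XLOC_015422 and -2.19 to 0.338 for XLOC_015426. The cause of these shifts was not tested, except that filters leave fewer members and fewer samples leave less to estimate the spread. Same-numbered samples share only a number: the correlation of their deviations was 0.176 over 2 pairs. With the replicate block 5 of the 12 named results past a test lost their call. Read numbers are unknown, so depth sets no limit that can be given.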

Other observations

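The loci given here were chosen after their values were seen, and none of their members passed the test in limma, although the groups did not overlap. At Zfp52, one of 5 loci whose reference has a symbol beginning with Zfp, which hold 8 members, XLOC_014570 was at 1.91 and 1.76 FPKM in wt and 3.78 and 4.35 in vcS5 (adjusted p = 0.054), and XLOC_014571 at 3.13 and 2.27 in wt and 1.60 and 0.87 in vcS5 (adjusted p = 0.161), so members of 1 locus had opposite signs. Zfp52 itself was at 13.8 and 14.4 FPKM in wt and 11.8 and 12.01 in vcS5. At Jakmip1, whose product binds Janus kinases and microtubules, XLOC_025713 was at 0.50 and 0.96 FPKM in wt and 2.34 and 2.09 in vcS5 (adjusted p = 0.082), and XLOC_025712 at 1.26 and 1.42 in wt and 2.28 and 2.51 in vcS5 (adjusted p = 0.164). Jakmip1 was at 41.3 and 47.3 FPKM in wt and 55.0 and 62.3 in vcS5.

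The member at Slamf6, a receptor of the SLAM family on lymphocytes, XLOC_001939, was at 12.2 and 14.1 FPKM in wt and 8.44 and 8.73 in vcS5 (log2 change -0.56, adjusted p = 0.089), while Slamf6 was at 75.5 and 75.2 in wt and 61.3 and 50.6 in vcS5. Notch2, which marginal zone B cells require, fell from 52.2 and 70.8 FPKM to 31.8 and 22.7, and both members of its locus had vcS5 values below wt without passing the test. XLOC_021647 there was at 1.90 and 7.47 FPKM in wt and 0.70 and 0.76 in vcS5 (adjusted p = 0.151), and XLOC_021646 at 2.29 and 1.08 in wt and 1.02 and 0.28 in vcS5 (adjusted p = 0.297).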
